A study of Mus musculus with 12 samples.

Results

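Spleens of mice given busulfan and then alginate oligosaccharides (AOS) were compared with spleens of untreated mice by RNA sequencing, across all genes. This used 6 of the 12 libraries of the study, 3 from mice given busulfan with AOS and 3 from controls. The members are the count columns that carry the codes of these groups, with 19376 genes in the table. The mice given busulfan with AOS had received busulfan at 40 mg/kg once and AOS at 10 mg/kg for 5 weeks after it. Control mice had no treatment. Mice given only busulfan at the same dose and mice given only AOS at the same dose, 3 libraries each, are used where named. The samples taken here as the busulfan group carry a code with a letter more than the design text's code for it. The strain is given as "IRC mouse" for all groups. The tissue label reads "Cells", while the protocol names spleen tissue. Age and sex are not in the labels. They do not state whether each library is from an animal of its own, so a p-value here reflects library-to-library spread only, some of it possibly technical.

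Busulfan is an alkylating drug that crosslinks DNA and kills dividing blood precursors, for which it is used before bone marrow transplants. AOS are short chains cut from alginate, a polysaccharide of brown seaweed. The mouse spleen filters blood and clears old red cells in its red pulp, holds B and T lymphocytes in its white pulp, and goes on making blood cells in adult life. A gene list in a whole spleen can differ because there are fewer cells of a type or because each cell holds less RNA, and these cannot be told apart here.

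The 6 libraries held 15051297 to 16014453 counts each. Defining genes of spleen cells were present in all of them. The B cell receptor gene Cd79a stood at 478 to 610 CPM (counts scaled to 1000000 per library) in busulfan with AOS and 572 to 831 CPM in controls. The red pulp macrophage regulator Spic stood at 53.3 to 73.9 CPM in busulfan with AOS and 37.8 to 45.9 CPM in controls. Transcripts of other tissues were present too and differed between libraries. Their values are given below.

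Of 15079 genes tested with edgeR, 132 were called at an adjusted p under 0.05, which is 0.875% of the genes tested. Of these, 39 rose in busulfan with AOS (0.259%) and 93 fell (0.617%). A further measure is whether the 3 libraries of busulfan with AOS lay apart from the 3 controls. They did so for 3461 genes (23.0%), with 1626 above the controls (10.8%) and 1835 below (12.2%). All 132 called genes were among them, which is not separate support because both measures use the same libraries. Most changes were small, with a median log2 fold change of 0.65 for the genes that rose and −0.60 for those that fell, and 15 rose and 16 fell by a log2 of at least 1. The count rests on the pooled fit of 12 libraries. It was 1 when only the 6 libraries were fitted and 0 without control 1 and AOS 2, which held the most fat and pancreas transcripts, with 2125 genes at an unadjusted p under 0.05 in that last fit. It lay between 3 and 30 when each library was left out in turn (5, 8 and 7 without libraries 1, 2 and 3 of busulfan with AOS, and 9, 3 and 30 without controls 1, 2 and 3). DESeq2 called 750 genes (4.82% of those with an adjusted p), including all 132.

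**Figure D1:**
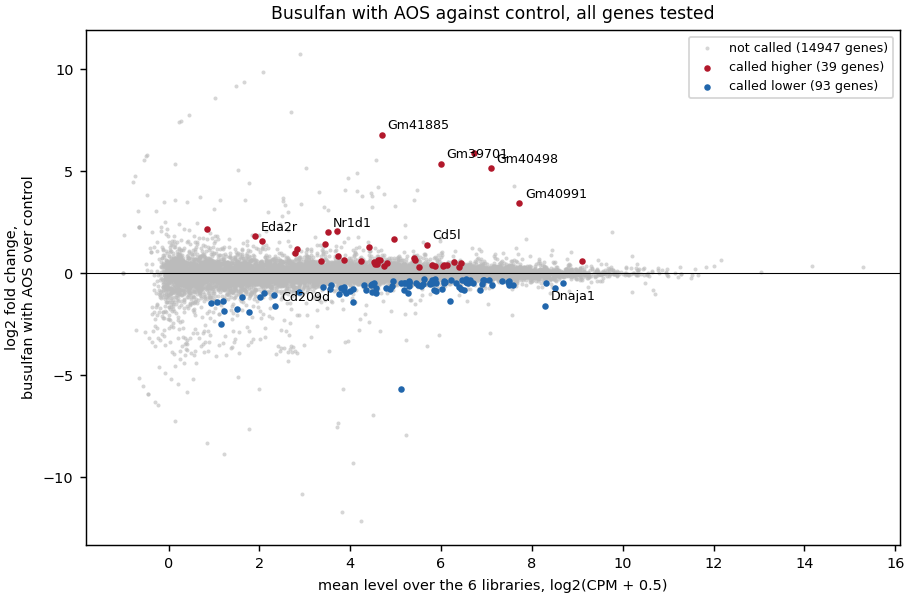
Each point is a gene, with its mean level over the 6 libraries as log2(CPM + 0.5) on the horizontal axis and the log2 fold change of busulfan with AOS over control on the vertical axis. Red points are the 39 genes called higher and blue points the 93 called lower, and most lie within a log2 of 1 of the zero line.

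Among the genes that rose were regulators of lymphocytes and macrophage products. Prdm1, which encodes Blimp-1, the repressor that drives B cells to become plasma cells, stood at 16.1, 16.4 and 17.4 CPM in busulfan with AOS, against 8.80, 10.1 and 8.50 CPM in controls (log2 0.86 ± 0.10 SE, edgeR adjusted p = 0.0151). The groups were well apart and the spread within each was small. Cd5l, a protein that tissue macrophages secrete, stood at 60.4, 89.9 and 72.5 CPM in busulfan with AOS, against 25.1, 33.2 and 26.8 CPM in controls (log2 1.39 ± 0.24, adjusted p = 0.0328). Every busulfan with AOS library lay above every control. In busulfan Cd5l stood at 48.4, 43.0 and 43.3 CPM. Busulfan with AOS was above busulfan by a log2 of 0.73, which did not pass the test (adjusted p = 0.117). Il12b, the p40 chain shared by the cytokines IL-12 and IL-23, stood at 5.74, 5.68 and 4.93 CPM in busulfan with AOS, against 1.85, 1.78 and 1.85 CPM in controls (log2 1.57 ± 0.23, adjusted p = 0.0215). The groups did not overlap, although the level was low. In busulfan Il12b stood at 3.83, 2.37 and 4.11 CPM. Busulfan with AOS was above busulfan by a log2 of 0.66, which did not pass the test (adjusted p = 0.127). Zbtb32, a zinc finger repressor of lymphocytes, stood at 10.9, 6.51 and 8.07 CPM in busulfan with AOS, against 4.34, 4.52 and 4.03 CPM in controls (adjusted p = 0.0381). The chemokine receptor gene Cxcr3 stood at 18.3, 15.9 and 17.9 CPM in busulfan with AOS, against 11.5, 10.2 and 11.1 CPM in controls (adjusted p = 0.0328). In both genes the treated libraries were all above the controls, by a log2 of 0.98 for Zbtb32 and 0.67 for Cxcr3. Relative to busulfan, Prdm1 (log2 0.65, edgeR adjusted p = 0.0144), Zbtb32 (0.90, adjusted p = 0.0335) and Cxcr3 (0.58, adjusted p = 0.0289) also rose and passed the test.

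Eda2r, a receptor of the TNF receptor family and a known target of p53, stood at 4.004, 4.72 and 6.53 CPM in busulfan with AOS, against 1.21, 1.34 and 1.79 CPM in controls (log2 1.81 ± 0.25, adjusted p = 0.0160). In mice given only busulfan it stood at 5.81, 6.80 and 6.45 CPM. The difference between busulfan with AOS and busulfan was a log2 of −0.32, which did not pass the test (adjusted p = 0.462). Of 21 p53 target genes tested, Eda2r was the member called, beside 0.259% of all genes called higher. Of the list, 6 lay above the controls without overlap and 1 below (10.8% and 12.2% of all genes tested), and the median was 0.12. Cdkn1a, the cell cycle inhibitor p21, had 7.21, 7.53 and 13 CPM in busulfan with AOS, against 2.23, 4.84 and 4.79 CPM in controls (adjusted p = 0.188). Phlda3, a p53 target that restrains Akt, had 9.08, 9.96 and 11.5 CPM in busulfan with AOS, against 6.89, 4.65 and 6.20 CPM in controls (adjusted p = 0.0830). Both were apart from the controls, and neither passed the test.

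Nr1d1, which encodes the clock repressor REV-ERB alpha, stood at 13.6, 19.7 and 18.7 CPM in busulfan with AOS, against 4.15, 4.78 and 4.09 CPM in controls (log2 2.00 ± 0.25, adjusted p = 0.0151). It was also above busulfan, where it stood at 3.77, 8.14 and 7.28 CPM (log2 1.44, adjusted p = 0.0190). Of 18 clock genes tested, no other member was called, beside 0.259% of all genes called higher and 0.617% called lower. The time of day of sampling is not in the labels. Ciart, a clock gene that rises and falls over the day, had 1.80, 1.91 and 1.29 CPM in busulfan with AOS, against 3.13, 3.18 and 2.56 CPM in controls. Per2, a core repressor of the clock, had 10.5, 11.04 and 11.1 CPM in busulfan with AOS, against 13.1, 14.1 and 15.9 CPM in controls. These were among 6 clock genes below the controls without overlap, with 2 above (12.2% and 10.8% of all genes tested), and the list median was −0.14.

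The other genes with the largest rises were of mixed roles. They include Id1, an inhibitor of helix-loop-helix factors (log2 1.21), Fscn1, an actin-bundling protein of mature dendritic cells (0.72), and Klf11, a zinc finger factor (0.65). Nprl3, a subunit of the GATOR1 complex that restrains mTORC1, had 53.9, 53.3 and 47.9 CPM in busulfan with AOS, against 37.3, 29.6 and 32.4 CPM in controls (log2 0.64, adjusted p = 0.0160). Among called genes with a symbol, the largest rises belonged to predicted genes whose 3 treated libraries differed widely. Gm40498 had 495, 79.3 and 221 CPM in busulfan with AOS, against 13.1, 5.22 and 4.15 CPM in controls, and Gm39701 had 235, 30.2 and 107 CPM in busulfan with AOS, against 1.15, 5.09 and 2.75 CPM in controls. Gm40991 and Gm41885 had the same order, with library 1 highest and library 2 lowest. Gm39701 lies on chromosome 1 (GRCm38.p6), at 170945108 to 170949763, and the other 3 were not matched in the RefSeq table.

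**Figure D2:**
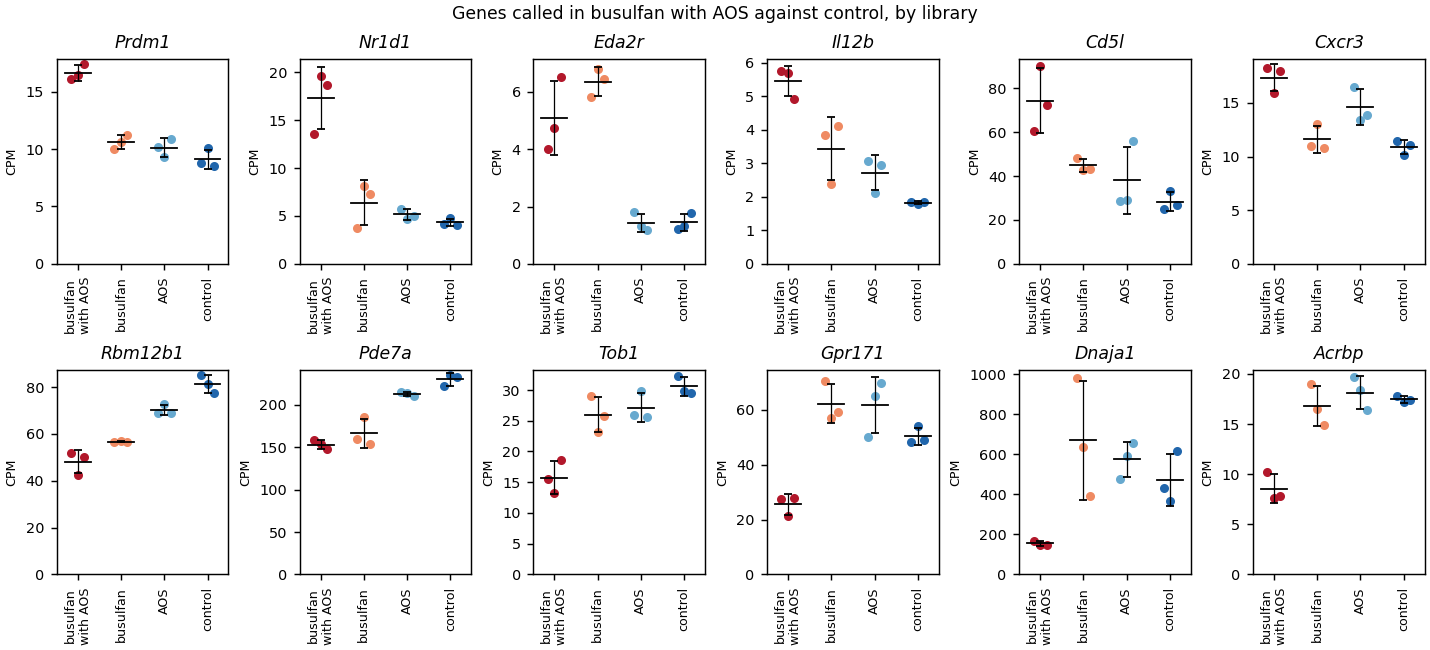
CPM of 12 called genes in each of the 12 libraries, with the mean (line) and SD (bar) of each group of 3. In the upper row the busulfan with AOS libraries lie above the controls, and in the lower row below them. The busulfan libraries also all lie above the controls for Eda2r, Il12b and Cd5l, and below them for Rbm12b1 and Pde7a.

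Among the genes that fell, Rbm12b1, which encodes an RNA-binding protein, had the smallest p. It stood at 51.7, 42.4 and 50.2 CPM in busulfan with AOS, against 85.3, 81.3 and 77.7 CPM in controls (log2 −0.76 ± 0.07, adjusted p = 0.00857). It stayed called whichever of the 6 libraries was left out, as did 1 further gene, which the table gives without a symbol. Rbm12b1 was not called with only the 6 libraries fitted, and its edgeR adjusted p was 0.0508 without control 1 and AOS 2. Its near copy Rbm12b2, which may share reads with it, also fell, by 0.50 on the log2 scale. Rbm12b1 stood at 56.6, 56.9 and 56.6 CPM in busulfan, and the difference between busulfan with AOS and busulfan did not pass the test (log2 −0.24, adjusted p = 0.104). Pde7a, a phosphodiesterase that breaks down cyclic AMP, had 158, 154 and 147 CPM in busulfan with AOS, against 222, 235 and 233 CPM in controls (log2 −0.59 ± 0.07, adjusted p = 0.0151). In busulfan it had 160, 186 and 153 CPM. Busulfan against control called 71 genes (0.471%), Rbm12b1 and Pde7a among them, with log2 fold changes of −0.52 and −0.47.

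A further set fell relative to both controls and busulfan. Gpr171, a G protein-coupled receptor of lymphocytes, had 27.6, 21.2 and 27.9 CPM in busulfan with AOS, against 48.0, 53.9 and 48.8 CPM in controls (log2 −0.97 ± 0.14, adjusted p = 0.0215). Relative to busulfan the log2 fold change was −1.28 (adjusted p = 0.00525). Tob1, a restrainer of cell proliferation, had 15.5, 13.3 and 18.5 CPM in busulfan with AOS, against 32.3, 29.8 and 29.6 CPM in controls (log2 −0.95 ± 0.13, adjusted p = 0.0156). The log2 fold change relative to busulfan was −0.72 (adjusted p = 0.0197). Acrbp, known as an acrosin-binding protein of sperm, had 10.2, 7.59 and 7.82 CPM in busulfan with AOS, against 17.8, 17.2 and 17.4 CPM in controls (log2 −1.03 ± 0.13, adjusted p = 0.0151). The groups did not overlap in any of these genes. Others that fell relative to both were Ccdc117 (log2 −1.36 against control), Nat14 (−1.05), Cdh24, a cadherin (−0.97), Jmjd6, a lysyl hydroxylase (−0.87), Gapt, a GRB2-binding adaptor of blood cells (−0.85), and Trim65, a ubiquitin ligase (−0.84). In the comparison of busulfan with AOS with busulfan, 456 genes were called (3.02%). The test of whether AOS acted differently with and without busulfan called 73 genes (0.484%), Gpr171, Acrbp, Cdh24 and Trim65 among them.

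Tsc22d3, the glucocorticoid-induced leucine zipper (GILZ), had 62.3, 49.9 and 77.2 CPM in busulfan with AOS, against 118, 96.4 and 112 CPM in controls (log2 −0.79 ± 0.15, adjusted p = 0.0378). In busulfan it stood at 195, 175 and 147 CPM, and the log2 fold change of busulfan with AOS against busulfan was −1.45 (adjusted p = 0.00525). Of 15 glucocorticoid and fasting genes it was the member called, beside 0.617% of all genes called lower. Of the list, 3 lay below the controls without overlap and 2 above (12.2% and 10.8% of all genes tested), and the median was 0.05. Zbtb16, a glucocorticoid-induced transcription factor, had 1.94, 1.72 and 1.79 CPM in busulfan with AOS, against 4.02, 4.08 and 2.81 CPM in controls (adjusted p = 0.116).

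Heat shock chaperones refold proteins and are induced by heat and other stress through the factor HSF1, which binds runs of inverted GAA units. The list of 18 held 1 called member, beside 0.617% of all genes called lower. This was Dnaja1, the DnaJ partner of Hsp70. It had 169, 149 and 149 CPM in busulfan with AOS, against 432, 365 and 619 CPM in controls (log2 −1.60 ± 0.29, adjusted p = 0.0346), and 981, 636 and 391 CPM in busulfan. All 18 members lay below the controls without overlap, where 12.2% of all genes tested did. The list median was −0.81, against −0.00071 for all genes tested, and it was −0.53 without control 3. DESeq2 called 10 of the 18 lower, beside 3.25% of the genes to which it gave an adjusted p. Other lists, described below, also had members called by DESeq2. Among them 9 of 10 liver genes and 5 of 15 NK and cytotoxic genes were lower, beside the same 3.25%. Of 11 regulatory T cell and checkpoint genes 4 were higher, where 244 of 15567 genes were.

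The promoters of Dnaja1 and of the stress-induced Hsp70 genes Hspa1a and Hspa1b are shown because Dnaja1 passed the test and the Hsp70 genes were at or near 0 in busulfan with AOS. Each line gives the 250 bases before the RefSeq start (GRCm38.p6), with the motif GAANNTTC in capitals. The motif is a single pair of such units, and binding of HSF1 to it was not measured. They lie at chr4:40722218-40722467 on the plus strand for Dnaja1, at chr17:34972157-34972406 on the minus strand for Hspa1a and at chr17:34959239-34959488 on the minus strand for Hspa1b.
Dnaja1: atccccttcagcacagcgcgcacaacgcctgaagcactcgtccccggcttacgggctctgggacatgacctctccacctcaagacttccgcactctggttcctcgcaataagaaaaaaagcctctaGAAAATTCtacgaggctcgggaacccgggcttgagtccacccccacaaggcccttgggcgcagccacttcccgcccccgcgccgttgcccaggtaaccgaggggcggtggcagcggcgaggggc
Hspa1a: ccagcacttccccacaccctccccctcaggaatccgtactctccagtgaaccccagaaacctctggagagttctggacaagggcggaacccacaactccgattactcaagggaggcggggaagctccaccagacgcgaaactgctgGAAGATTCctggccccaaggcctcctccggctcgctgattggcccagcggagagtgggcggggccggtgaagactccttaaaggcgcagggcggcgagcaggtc
Hspa1b: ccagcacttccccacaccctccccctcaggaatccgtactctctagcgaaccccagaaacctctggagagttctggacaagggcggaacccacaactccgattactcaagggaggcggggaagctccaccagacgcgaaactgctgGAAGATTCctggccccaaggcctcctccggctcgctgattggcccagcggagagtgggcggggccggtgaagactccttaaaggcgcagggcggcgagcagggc
The motif starts 124 bases before the start in Dnaja1 and 104 bases before it in both Hsp70 genes, whose 250 bases match at 247 positions. Over windows of 300 bases (250 before the start and 50 after it), the motif, which reads the same on both strands, was in at least 1 window of 10 of the 15 list members with a window (66.7%). Of all genes with a window, 9.04% held it.

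Hspa1a had 0 counts in each of the 3 busulfan with AOS libraries, against 199, 26 and 1045 counts in controls. With 3 counts taken as the limit for each library at 0, its mean was at least 140-fold lower in busulfan with AOS, and at least 37-fold lower without control 3, a setting chosen after the data were seen (edgeR adjusted p = 0.0855 with all controls). Hspa1b had 1, 0 and 1 counts in busulfan with AOS, against 202, 46 and 1259 counts in controls (adjusted p = 0.0554). The copies are near-identical, so reads may be split between them, and control 3 held most of the control signal of both. Hsph1, an Hsp110 exchange factor, had 79.6, 71.1 and 70.9 CPM in busulfan with AOS, against 221, 203 and 484 CPM in controls (adjusted p = 0.0611). Hspa8, the constitutive Hsp70, had 1219, 1058 and 1058 CPM in busulfan with AOS, against 1945, 1907 and 2796 CPM in controls (adjusted p = 0.0634). Hsp90ab1, the constitutive Hsp90, had 1272, 1167 and 1152 CPM in busulfan with AOS, against 1433, 1514 and 2031 CPM in controls (adjusted p = 0.222). The treated libraries were close together in each of these genes, and control 3 was the highest control.

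The 18 chaperones together took 0.440 ± 0.0180% of counts in busulfan with AOS, 1.09 ± 0.340% in busulfan and 0.801 ± 0.206% in controls (SD, n = 3 each). The exact permutation test of busulfan with AOS against control, two-sided, gave p = 0.1, the smallest that 3 against 3 libraries allow. Against busulfan, 14 of the 18 members fell, beside 1.50% of all genes, and the list median was −1.48. Against control, busulfan had a list median of 0.55. Both comparisons with control share the control libraries. Cirbp, an RNA-binding protein induced by mild cold, had 66.5, 63.9 and 65.5 CPM in busulfan with AOS, against 19.0, 23.7 and 23.3 CPM in busulfan (log2 1.57, adjusted p = 0.00824). In controls it had 36.6, 40.0 and 24.6 CPM, and the log2 of 0.95 against them did not pass the test (adjusted p = 0.0573). Rbm3, its close relative, had 692, 644 and 618 CPM in busulfan with AOS, against 555, 516 and 481 CPM in controls (adjusted p = 0.242). Tissue handling is not described in the labels, and its part in these values was not tested.

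**Figure D3:**
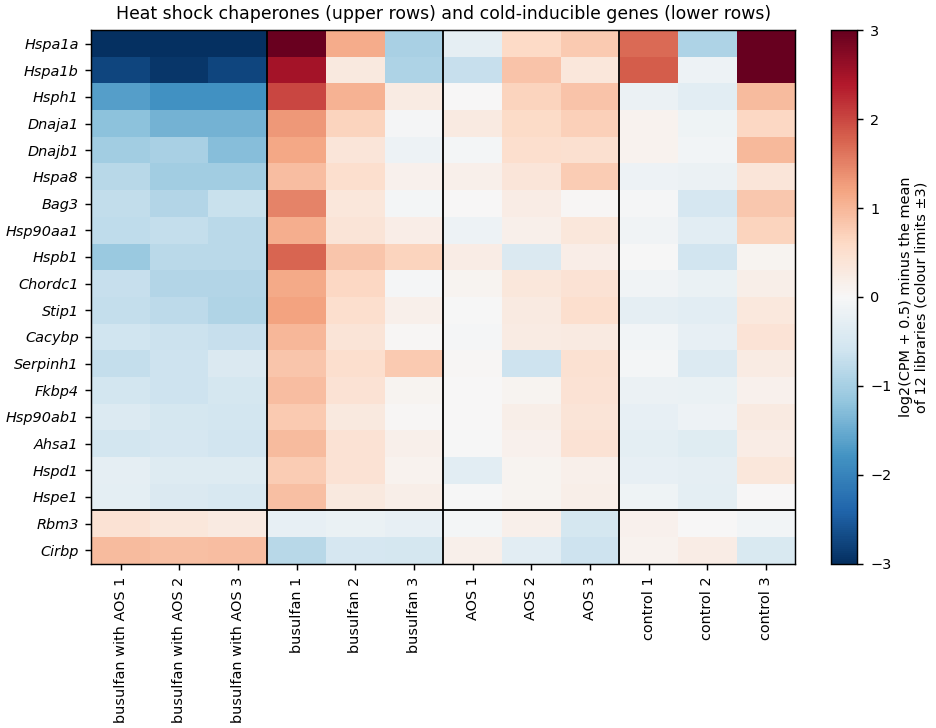
Level of each heat shock chaperone (18 upper rows) and of the cold-inducible genes Rbm3 and Cirbp (lower rows) in the 12 libraries, as log2(CPM + 0.5) minus its mean over the 12, in colour from blue (low) to red (high). The 3 busulfan with AOS columns are blue for the chaperones and red for Cirbp, and control 3 is the reddest control for most chaperones.

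Interferon-stimulated genes encode antiviral proteins and are induced by interferon. None of the 18 was called. Of them, 14 lay above the controls without overlap, where 10.8% of all genes tested did, and the list median was 0.83. Ifit3, an RNA-binding antiviral protein, had 87.6, 64.3 and 61.7 CPM in busulfan with AOS, against 17.3, 31.3 and 26.6 CPM in controls (log2 1.505 ± 0.56, adjusted p = 0.194). Mx1, an antiviral GTPase, had 44.4, 24.2 and 28.2 CPM in busulfan with AOS, against 11.5, 15.1 and 14.3 CPM in controls (log2 1.24 ± 0.42, adjusted p = 0.161). Irf7, the factor that amplifies type I interferon, had 165, 153 and 113 CPM in busulfan with AOS, against 37.5, 76.6 and 67.7 CPM in controls (adjusted p = 0.270). Control 1 was the lowest control in these 3 genes. Cxcl10, an interferon-induced chemokine, had 22.9, 11.2 and 10.2 CPM in busulfan with AOS, against 15.8, 15.2 and 23.7 CPM in controls, and overlapped. In the AOS group the list level ran from −0.88 to 1.14 between libraries, a wider range than the 0.30 to 0.68 of busulfan with AOS and the −0.68 to −0.16 of controls. To obtain a list level, each member's log2(CPM + 0.5) was centred on the 12 libraries, and the median was taken over the members.

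NK and cytotoxic cell markers had a median of −0.59, with 0 of 15 called and 8 below the controls without overlap, beside 12.2% of all genes tested. Ncr1, the NK receptor NKp46, had 6.61, 5.23 and 4.37 CPM in busulfan with AOS, against 9.70, 11.2 and 19.5 CPM in controls (log2 −1.32 ± 0.36, adjusted p = 0.0994). Gzma, a granule protease, had 12.5, 9.57 and 8.63 CPM in busulfan with AOS, against 20.1, 22.4 and 46.7 CPM in controls (log2 −1.54 ± 0.38, adjusted p = 0.0830). Control 3 was the highest control in both. In busulfan the list levels were −0.50 to −0.30, beside −0.38 to −0.13 in busulfan with AOS and 0.13 to 0.62 in controls. T cell genes overlapped throughout, with 0 of 18 called, none apart and a median of −0.07.

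Regulatory T cell and checkpoint genes had a median of 0.46, with 0 of 11 called and 5 above the controls without overlap, beside 10.8% of all genes tested. Pdcd1, the inhibitory receptor PD-1, had 6.54, 4.15 and 4.56 CPM in busulfan with AOS, against 2.17, 1.97 and 2.49 CPM in controls (log2 1.20 ± 0.26, adjusted p = 0.0615). Ctla4, which blocks costimulation, had 13.4, 9.57 and 14.4 CPM in busulfan with AOS, against 7.59, 6.18 and 7.41 CPM in controls (log2 0.82 ± 0.18, adjusted p = 0.0649). Foxp3, the defining factor of regulatory T cells, had 13.9, 7.79 and 15.8 CPM in busulfan with AOS, against 9.44, 8.79 and 9.01 CPM in controls, and overlapped. Library 2 of busulfan with AOS was the lowest treated library in both Ctla4 and Foxp3.

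B cell identity genes had a median of −0.29, with 0 of 16 called and 4 below the controls without overlap, beside 12.2% of all genes tested. Tnfrsf13c, the receptor for the survival factor BAFF, had 114, 90.6 and 83.2 CPM in busulfan with AOS, against 168, 146 and 134 CPM in controls (adjusted p = 0.0762). Of 15 plasma cell and secretory genes, Prdm1 was the member called, beside 0.259% of all genes called higher. Of the list, 4 lay above the controls without overlap, beside 10.8% of all genes tested. Slamf7, a receptor of plasma cells and other lymphocytes, had 49.6, 45.1 and 47.3 CPM in busulfan with AOS, against 36.9, 28.7 and 34.5 CPM in controls (adjusted p = 0.0696). It rose against busulfan, by a log2 of 0.89 (adjusted p = 0.00865). Of 10 germinal centre genes 0 were called and the median was 0.54.

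Of 16 red pulp macrophage genes Cd5l was called, beside 0.259% of all genes called higher. Of the list, 4 lay above the controls without overlap (10.8% of all genes tested), and the list median was 0.41. Spic had 53.3, 70.5 and 73.9 CPM in busulfan with AOS, against 37.8, 38.7 and 45.9 CPM in controls (log2 0.69 ± 0.19, adjusted p = 0.0994). Cd209d, a C-type lectin whose relatives may share reads with it, had 2.40, 1.66 and 2.71 CPM in busulfan with AOS, against 7.15, 5.604 and 8.12 CPM in controls (log2 −1.62 ± 0.31, adjusted p = 0.0378). It stood at 3.32, 1.99 and 2.28 CPM in busulfan. Of 7 marginal zone macrophage genes Clec4g was called, beside 0.617% of all genes called lower. Of the list, 3 lay below the controls without overlap and 1 above (12.2% and 10.8% of all genes tested), and the median was −0.28. Clec4g stood at 1.00, 1.02 and 1.23 CPM in busulfan with AOS, against 4.08, 2.80 and 4.03 CPM in controls (log2 −1.74 ± 0.29, adjusted p = 0.0290). Clec4g is also known from sinusoidal endothelium of the liver. The macrophage scavenger receptor gene Marco had 84.0, 100.1 and 94.8 CPM in busulfan with AOS, against 89.96, 138 and 111 CPM in controls, and overlapped.

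Liver transcripts also lay below the controls. All 10 liver genes did so without overlap, beside 12.2% of all genes tested, with 0 called and a median of −3.62. Alb, serum albumin, had 5.01, 9.32 and 9.61 CPM in busulfan with AOS, against 60.2, 199 and 22.1 CPM in controls (adjusted p = 0.0782). The summed level of the list was 10.4 to 18.5 CPM in busulfan with AOS and 47.9 to 390.5 CPM in controls, and the median was −2.38 without control 2, the control with the most. The summed level was 107, 390.5 and 47.9 CPM in controls 1, 2 and 3. The part of liver transcripts in the values of Clec4g was not tested. Adipocyte genes had a median of −2.89 over 8 tested, with 0 called, and −0.47 without control 1. Adipoq, the fat cell hormone gene, had 0.400 to 2.53 CPM in busulfan with AOS, against 28.1 CPM in control 1. Pancreatic acinar genes had a median of 3.67 over 19 tested, with 0 called and 7 above the controls without overlap (10.8% of all genes tested). Cpb1, a pancreatic carboxypeptidase, had 83.3, 11.6 and 4.68 CPM in busulfan with AOS, against 0.0638, 3.18 and 0.0639 CPM in controls. Library 1 of busulfan with AOS held the most.

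**Figure D4:**
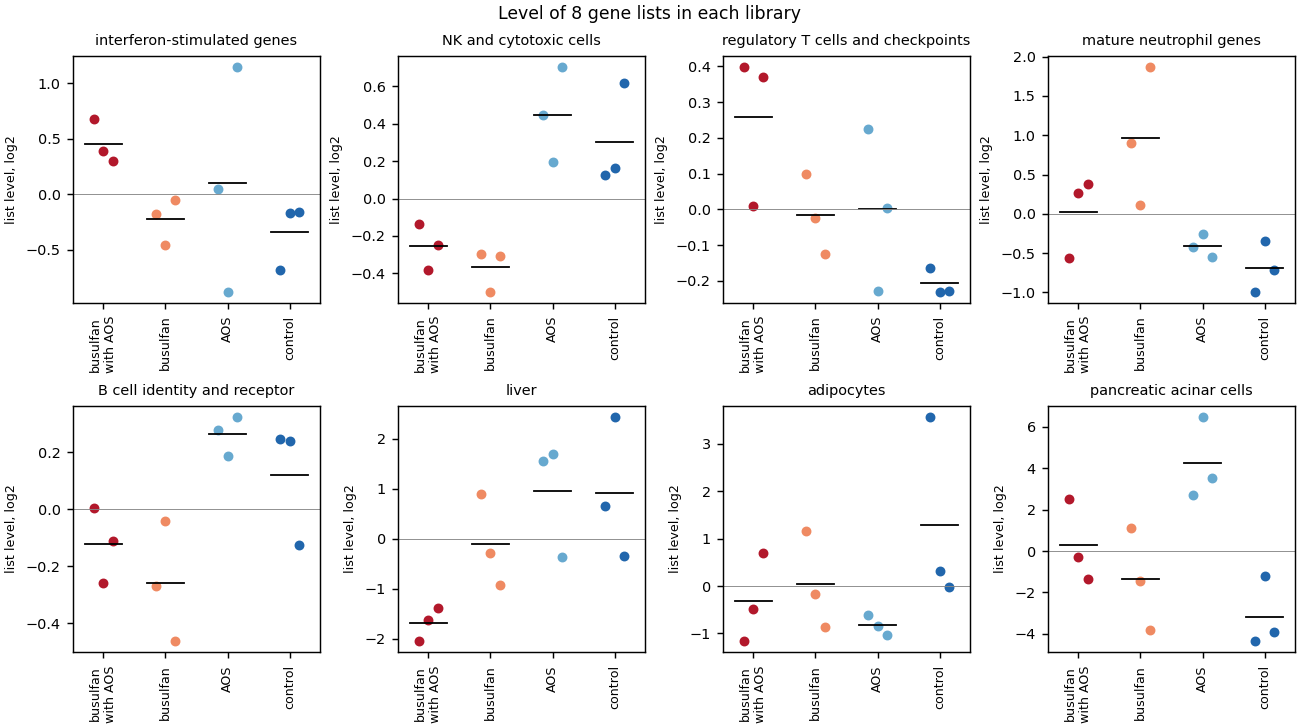
Level of 8 gene lists in each of the 12 libraries, as the members' median of log2(CPM + 0.5) after centring each gene on the 12, with the mean of each group as a line. Interferon-stimulated genes lie higher in busulfan with AOS than in controls, NK and liver genes lower, and the liver, adipocyte and pancreas lists vary most between libraries.

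The neutrophil and eosinophil lists had medians above 0, and the basophil and mast cell list below it. Of 15 mature neutrophil genes 0 were called, 5 lay above the controls without overlap (10.8% of all genes tested), and the median was 0.79. Ly6g, a neutrophil surface protein, had 3.00, 7.40 and 5.98 CPM in busulfan with AOS, against 1.15, 1.97 and 1.41 CPM in controls (log2 1.85 ± 0.57, adjusted p = 0.128), and 11.7, 4.87 and 25.6 CPM in busulfan. Library 1 was the lowest treated library. Of 9 eosinophil genes 0 were called, 5 lay above the controls without overlap, beside the same 10.8%, and the median was 0.75. Prg2, a toxic granule protein of eosinophils, had 4.94, 11.7 and 8.44 CPM in busulfan with AOS, against 2.04, 1.27 and 1.41 CPM in controls (log2 2.40 ± 0.51, adjusted p = 0.0576). In busulfan it had 22.1, 9.42 and 36.6 CPM. Early neutrophil granule genes had a median of 0.53, with 0 of 14 called and none apart. Basophil and mast cell genes had a median of −0.46 over 9 tested, with 0 called and 1 below the controls without overlap (12.2% of all genes tested). That gene was Gata2, a transcription factor of mast cells and blood progenitors, with 6.14, 5.999 and 6.72 CPM in busulfan with AOS, against 8.42, 8.92 and 8.57 CPM in controls (log2 −0.46 ± 0.14, adjusted p = 0.125).

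None of the mitosis, DNA replication and crosslink repair genes was called. All 25 mitosis genes and all 24 DNA replication genes had a log2 fold change above 0, with medians of 0.34 and 0.29, and 4 and 1 of them lay above the controls without overlap, beside 10.8% of all genes tested. Ttk, a spindle checkpoint kinase, had 32.4, 37.3 and 31.1 CPM in busulfan with AOS, against 19.3, 18.7 and 25.5 CPM in controls (adjusted p = 0.0690). The genes that repair DNA crosslinks had a median of 0.25 over 20 tested and 6 above the controls without overlap (10.8% of all genes tested). Fancb, of the Fanconi core complex, had 11.7, 11.4 and 9.80 CPM in busulfan with AOS, against 7.85, 8.53 and 8.05 CPM in controls (adjusted p = 0.114). Control 3 was among the treated libraries for the mitosis list, with a level of 0.19 beside −0.02 to 0.51 in busulfan with AOS.

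Red cell genes overlapped between the groups. Of 20 red cell precursor genes 0 were called, none lay apart, and the median was 0.09. The 9 globin genes measured, of which 7 were tested, took 8.01 ± 1.90% of counts in busulfan with AOS and 6.52 ± 0.944% in controls (SD, n = 3 each, exact permutation p = 0.3, two-sided). Their counts may be shared between near-identical copies. Stem and progenitor genes had a median of −0.01 over 16 tested and megakaryocyte and platelet genes 0.01 over 16, with 0 called in each. Of 16 genes of sialic acid and lactosyl glycan metabolism, Neu1, the lysosomal sialidase, was the member called, beside 0.617% of all genes called lower. It had 41.4, 42.7 and 49.97 CPM in busulfan with AOS, against 60.1, 59.9 and 65.2 CPM in controls (log2 −0.47 ± 0.09, adjusted p = 0.0412). Of the list, 3 lay below the controls without overlap and 1 above (12.2% and 10.8% of all genes tested), and the median was 0.04. Across the 43 lists, with 599 genes tested, 35 had no member called and 8 had 1 each, beside 0.875% of all genes tested called.

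**Figure D5:**
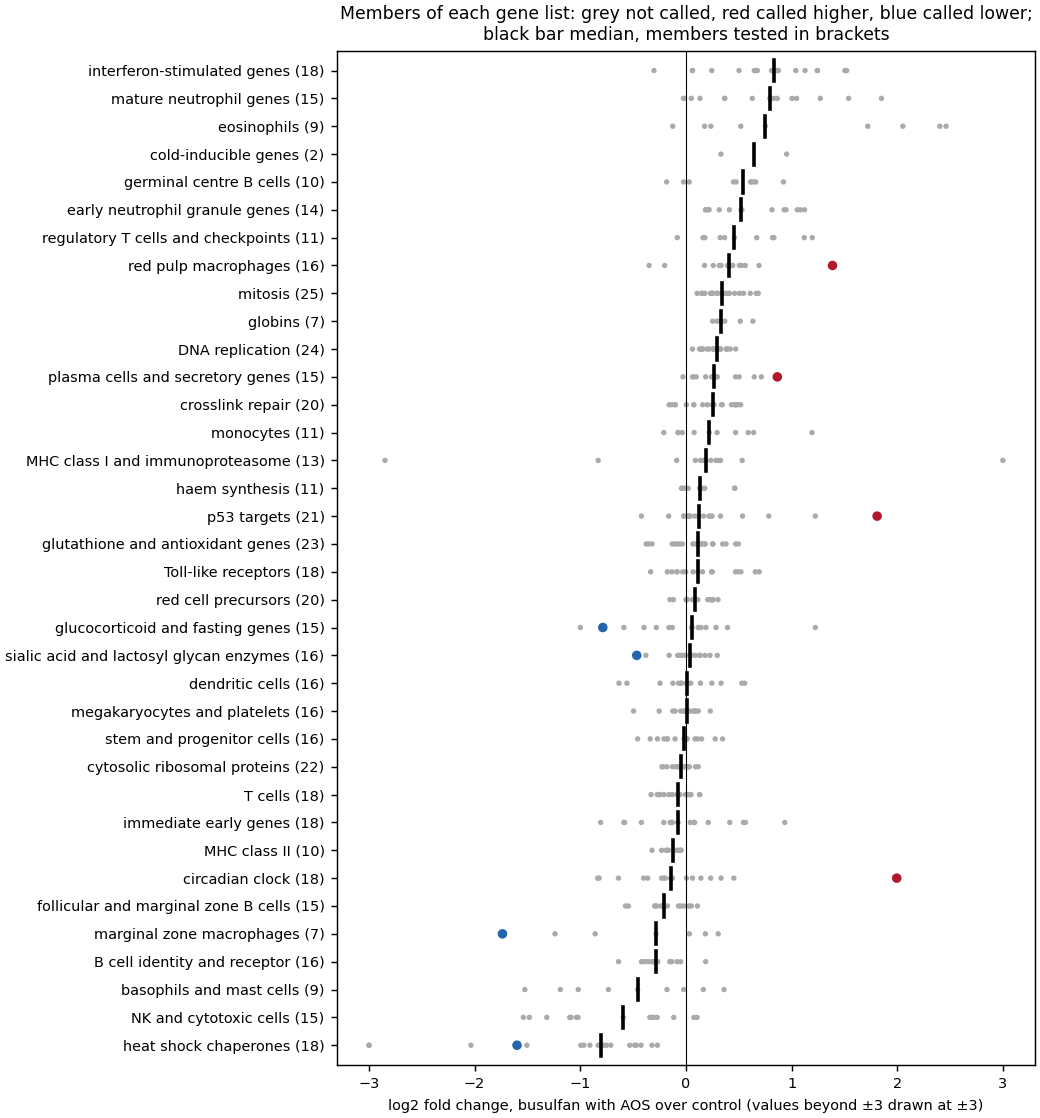
Log2 fold change of busulfan with AOS over control for the members of the lists of spleen cells, pathways, handling and RNA quality (points, with values beyond ±3 drawn at the edge), with the list median as a black bar and the number of members tested in brackets. Red points were called higher and blue points lower, and among the lists drawn the heat shock chaperones have the lowest median (−0.81) and the interferon-stimulated genes the highest (0.83). The lists of other tissues and the sex-linked genes are not drawn.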

How the data were processed

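RNA of 12 spleen libraries was measured, 3 in each of 4 groups taken from the labels and the design text. The authors deposited expected counts and FPKM per gene and library in 1 table. The count columns are headed read_count, with 75.7% whole numbers. The deposited normalised values were read as FPKM because count over value tracked the totals within 0.432%, judged on 1227 genes of 2000 counts or more. Per the submitters' processing notes, the build was mm10. The sources used here do not name the aligner, counter, annotation, library type or strandedness, so reads of overlapping genes, antisense partners and near-identical copies may have been shared. A further 8 columns of group averages were not used here. RefSeq (GRCm38.p6) supplied coordinates and promoters and held 18233 of the 18362 Entrez numbers. The 1014 rows without an Entrez number held 2.72% to 3.13% of counts, stayed in the test and are not named. Within groups, the chi-square per degree of freedom between libraries was 15.9 to 72.7, so none was a copy.

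Counts were rounded and fitted with edgeR 4.0.16 (R 4.3.3) with filterByExpr, TMM (factors 0.965 to 1.04) and glmQLFit, with 1 mean per group over 12 libraries (residual df 8, prior df 2.97, common BCV 18.9%, the biological coefficient of variation). Each contrast used a two-sided glmQLFTest, with p-values adjusted by Benjamini-Hochberg over 15079 genes. The standard error (SE) is the log2 fold change divided by the square root of F. CPM uses TMM-scaled totals. On simulated counts for this comparison (14932 genes) 82% of genes changed by a log2 of 1 and 95% changed by a log2 of 2 were recovered, with 6 false calls. The changed genes were drawn from those with a mean over 5 CPM, and the spread was that of the same fit. No library was made to stand out, so recovery at lower levels or with such a library was not measured. Shares of counts were compared by the exact permutation test, two-sided. Limits from a count of 0 cover counting error only.

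The text names the 15 called genes of each direction with the largest change, groups apart and at least 5 CPM in the higher group, the 5 per direction ranked first by p, and of each of 43 lists (612 genes) the 2 members with the smallest p, or 4 where 2 or more were called. Not all genes that meet the rule are printed, and other list members named were chosen after their values were seen. The comparison and the lists were chosen with earlier results of these data known. Alternatives used limma 3.58.1 on log2(FPKM + 0.1) of genes with at least 0.5 FPKM in 3 libraries, and DESeq2 1.42.0.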

Additional observations from a re-analysis of the deposited data

Results flagged for a closer look

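In the pooled fit, edgeR's test of the interaction of AOS and busulfan called 8 of the named genes. The interaction is the log2 difference between busulfan with AOS and busulfan minus that between AOS and control. Over all genes 73 were called in this test (0.484%). The interaction was not refitted with libraries left out or by other methods, so the stability of these calls was not tested. It draws on the control library and the AOS library that held the most fat and pancreas transcripts. The comparison of busulfan with AOS against control kept no calls without these libraries. Dnaja1 averaged 156 ± 11.6 CPM in busulfan with AOS, 669 ± 296 CPM in busulfan, 575 ± 89.3 CPM in AOS and 472 ± 131 CPM in controls (SD, n = 3 each), an interaction of −2.39 (adjusted p = 0.0405). Tsc22d3 averaged 63.1 ± 13.7 CPM in busulfan with AOS, 172 ± 24.3 CPM in busulfan, 161 ± 2.03 CPM in AOS and 109 ± 11.4 CPM in controls, an interaction of −2.01 (adjusted p = 0.00908). In both genes the mean of AOS was above that of controls, and that of busulfan with AOS was below that of busulfan.

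Gpr171 averaged 25.6 ± 3.80 CPM in busulfan with AOS, 62.2 ± 7.2 CPM in busulfan, 61.7 ± 10.3 CPM in AOS and 50.2 ± 3.18 CPM in controls, an interaction of −1.58 (adjusted p = 0.0116). Trim65 had an interaction of −1.53 (adjusted p = 0.0171), Cdh24 of −1.39 (adjusted p = 0.0405) and Acrbp of −1.03 (adjusted p = 0.0474). In all 3, the libraries of busulfan with AOS were below those of every other group. Fosl2, a partner of Jun, averaged 12.3 ± 2.40 CPM in busulfan with AOS, 37.3 ± 10.0 CPM in busulfan, 21.3 ± 1.13 CPM in AOS and 21.5 ± 1.25 CPM in controls, an interaction of −1.59 (adjusted p = 0.0361). Cirbp had the opposite sign, at 65.3 ± 1.28 CPM in busulfan with AOS, 22.0 ± 2.61 CPM in busulfan, 29.0 ± 8.12 CPM in AOS and 33.7 ± 8.08 CPM in controls, an interaction of 1.79 (adjusted p = 0.0331).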

How the results depend on the processing

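The 132 calls of busulfan with AOS against control (39 higher, 93 lower) rest on the spread estimated from 12 libraries. With only the 6 libraries compared, 1 gene was called (1 higher, 0 lower), with 2516 at an unadjusted p under 0.05. Without control 1 and AOS 2, 0 were called (0 higher, 0 lower), with 2125 at an unadjusted p under 0.05 and a smallest adjusted p of 0.0508. DESeq2 called 750 (244 higher, 506 lower). Leaving out a library gave 3 to 30 calls (2 to 7 higher, 1 to 23 lower). All 132 kept their sign and an unadjusted p under 0.05 in the 6 such fits, while 99 were called in 0 of them. The 132 were picked by the full fit, which shares most libraries with each of these. Keeping the sign and a low unadjusted p is therefore not independent support. RLE scaling gave 125, upper quartile 154, no filter 107, a stricter filter 155, counts not rounded 134, and limma on FPKM 105. Against busulfan the 456 calls became 86 with 6 libraries, 174 without control 1 and AOS 2, and 1138 with DESeq2. Leaving out a library of the groups compared gave 45 to 531. The cause of these differences was not tested, beyond the fewer libraries fitted. Of the named genes that were called, none reversed its sign under any alternative run. In several runs, the replicate block among them, 1 named gene that was not called did not keep its sign. RLE and upper quartile scaling changed the sign of 0 list medians.

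Deviations of same-numbered libraries correlated over genes at −0.03, −0.09 and −0.02 between busulfan with AOS and control, and at 0.17, 0.05 and 0.11 between busulfan with AOS and busulfan. Not every pair was over 0.1, so the numbers were not taken to pair the samples. With the number as a replicate block, 99 genes were called (31 higher, 68 lower), and 364 against busulfan. A count of 0 in a library of 15051297 counts allows up to 0.199 CPM.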

Other observations

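A further 4 genes among the 93 that fell were chosen after their values were seen. Clk1, a kinase of splicing factors, had 356, 326 and 337 CPM in busulfan with AOS, against 504, 470 and 467 CPM in controls (log2 −0.50 ± 0.07, edgeR adjusted p = 0.0172). Its relative Clk4 had 142, 136 and 141 CPM in busulfan with AOS, against 182, 183 and 184 CPM in controls (log2 −0.39 ± 0.06, adjusted p = 0.0267). Fubp1, a nucleic acid-binding protein that regulates Myc, had 276, 245 and 272 CPM in busulfan with AOS, against 360, 375 and 361 CPM in controls (adjusted p = 0.0267). Mat2a, which makes the methyl donor S-adenosylmethionine, had 290, 268 and 278 CPM in busulfan with AOS, against 462, 384 and 514 CPM in controls (log2 −0.70 ± 0.13, adjusted p = 0.0362). The groups were apart in all 4 genes.

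The genes that follow were also chosen after their values were seen. Cxcr4, the receptor that holds blood cells in the marrow niche, had 83.0, 89.0 and 78.6 CPM in busulfan with AOS, against 147, 126 and 174 CPM in controls (log2 −0.83 ± 0.13, adjusted p = 0.0243). Tnfsf9, the 4-1BB ligand, had 1.60, 1.02 and 1.05 CPM in busulfan with AOS, against 4.66, 3.12 and 5.94 CPM in controls (log2 −1.90 ± 0.35, adjusted p = 0.0339). Both fell relative to busulfan too, by 1.17 and 1.87 on the log2 scale. Serpinf2, a plasmin inhibitor that the liver makes, had 0.734, 1.08 and 0.555 CPM in busulfan with AOS, against 2.49, 3.95 and 2.11 CPM in controls (adjusted p = 0.0483). Liver transcripts were also lower in busulfan with AOS, and their part in the values of Serpinf2 was not tested. Among the genes that rose, H3f3b, a histone H3.3 gene, had 726, 654 and 587 CPM in busulfan with AOS, against 483, 423 and 403 CPM in controls (log2 0.59 ± 0.09, adjusted p = 0.0267).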
